A study of Caenorhabditis elegans with 2 samples.

Results

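The mitochondrial ribosomal protein genes of Caenorhabditis elegans were read for promoter peaks of the zinc finger transcription factor LSY-2, which is known for its part in fixing left and right neuron identity in the worm. The genes were chosen by name alone, as the protein-coding genes of the WBcel235 annotation called mrpl- (large subunit) or mrps- (small subunit), which gave 70 of 19973 protein-coding genes, 41 of them mrpl and 29 mrps. The data were ChIP-seq peak lists from whole worms at the L4 larval stage, a single group of 2 biological replicates. The strain, OP367, has the genotype unc-119(tm4063) III with the integrated transgene wgIs367, which stably expresses LSY-2 with a GFP-FLAG tag at its C-terminus, and males and females were pooled. Both replicates came from this strain, so the peaks describe the tagged protein of a transgene in mixed tissues, and binding in a given cell type was not measured.

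Mitochondrial ribosomes translate the few proteins that mitochondrial DNA encodes, which are core subunits of the respiratory chain and of ATP synthase. Their RNAs are made in the mitochondrion, whereas all of their proteins are encoded in the nucleus, translated in the cytosol and imported. In worms, loss of a mitochondrial ribosomal protein such as MRPS-5 is known to alter the balance between nuclear and mitochondrial respiratory subunits, to induce the mitochondrial unfolded protein response and to lengthen life. Many worm genes lie in operons, in which a promoter upstream of the first gene serves a row of closely spaced genes on the same strand. Many worm mRNAs are also trans-spliced, so that an annotated 5′ end can lie downstream of the start of transcription.

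Each annotated 5′ end of a gene was given a promoter window, 1000 bp long upstream and 200 bp long downstream, and a gene was counted when any of its windows held the summit of a peak. The main list was the 5944 peaks on the ce11 build (the same sequence as WBcel235) that the authors kept by the irreproducible discovery rate (IDR), a measure of agreement between replicates. These are also the 5944 strongest peaks of the longer list pooled from both replicates. The signal of a peak is the authors' value on a scale not given in the sources used here; it ran from 59.9 to 19064.5 in this list. Rank 1 is the strongest peak. Reads per peak are not listed, which leaves sequencing depth unknown.

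LSY-2 summits were common at mitochondrial ribosomal protein genes. Of the 70 genes, 41 (58.6%) had a thresholded summit in the window, against 19.5% of all protein-coding genes. The summits were also strong: the median signal over these 41 genes was 271.8, against 170.1 over the 3897 protein-coding genes with a summit. Among the 41, 21 (51.2%) had a summit among the 1000 strongest peaks, against 30.2% of all genes with a summit. These are counts over genes within the pooled list, and no test across genes was made.

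The strongest summits lay at genes of both subunits. The sequences of 5 of the 7 strongest, without mrpl-19 and mrps-15, are shown so that the words searched for at the summits can be seen in place. They give 100 bp around the summit, read 5′ to 3′ on the strand of the mitochondrial ribosomal protein gene, in the RefSeq sequence of WBcel235. Capitals mark the words GAGAGA, AGACGCAG and GCAAACAC or their reverse complements (TCTCTC, CTGCGTCT and GTGTTTGC).
mrps-28: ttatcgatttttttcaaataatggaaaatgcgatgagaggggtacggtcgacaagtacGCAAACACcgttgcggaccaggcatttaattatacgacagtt
mrpl-35: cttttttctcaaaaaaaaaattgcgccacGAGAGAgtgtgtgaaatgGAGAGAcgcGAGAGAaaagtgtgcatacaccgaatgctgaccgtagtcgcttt
mrps-18A: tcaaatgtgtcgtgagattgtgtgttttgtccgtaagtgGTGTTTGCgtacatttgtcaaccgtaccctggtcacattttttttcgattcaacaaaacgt
mrps-7: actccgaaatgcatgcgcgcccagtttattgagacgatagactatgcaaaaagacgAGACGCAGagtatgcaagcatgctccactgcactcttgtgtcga
mrpl-28: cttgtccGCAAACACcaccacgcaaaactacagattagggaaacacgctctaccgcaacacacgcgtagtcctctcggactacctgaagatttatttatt

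The first of these regions, chrV:19644066-19644165 on the plus strand, belongs to mrps-28 (WBGene00012830), a small subunit gene. Its signal was 848.4 in replicate 1, 557.4 in replicate 2 and 1389.0 in the thresholded list, with ranks of 130, 137 and 131. The rank was nearly the same in every list. The summit lay 123 bp upstream of mrps-28, between it and Y43F8C.7, whose 5′ end is on the other strand 209 bp away. The region of mrpl-35 (WBGene00010812), chrIII:3510051-3510150 on the plus strand, holds several copies of GAGAGA. Its signal was 684.0 in replicate 1, 486.8 in replicate 2 and 1161.8 in the thresholded list, at ranks 152, 153 and 154. This large subunit gene shares the summit, 136 bp upstream, with M01F1.4. The region of mrps-18A (WBGene00022583), chrIII:8331946-8332045 on the minus strand, had 629.2 in replicate 1, 365.8 in replicate 2 and 993.6 in the thresholded list. Its rank was 166 in replicate 1, 216 in replicate 2 and 183 in the thresholded list, and the summit was shared with ZC262.2 and iglr-2.

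Somewhat weaker were mrps-7 and mrpl-28. The region of mrps-7 (WBGene00013324), chrIV:14767851-14767950 on the minus strand, holds AGACGCAG close to the summit. Its product is the counterpart of a bacterial protein that starts the assembly of the head of the small subunit. Signals there were 340.1 in replicate 1, 223.9 in replicate 2 and 562.0 in the thresholded list (ranks 332, 368 and 346), and the summit lay 171 bp upstream. The gene Y57G11C.3 on the other strand shares it. The region of mrpl-28 (WBGene00020796), chrII:156051-156150 on the minus strand, holds GCAAACAC and belongs to no other gene's window. Signals of mrpl-28 were 315.5 in replicate 1, 246.1 in replicate 2 and 559.5 in the thresholded list (ranks 362, 326 and 348), 92 bp upstream of the 5′ end.

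The other members of the 10 strongest had signals between 454.8 and 571.4, and mrpl-19 and mrps-15 among them ranked above mrps-7 and mrpl-28. The summit of mrpl-19, whose bacterial counterpart lies where the subunits meet, was 128 bp upstream and stood alone, with 351.0 in replicate 1, 241.5 in replicate 2 and 571.4 in the thresholded list (ranks 319, 336 and 339). That of mrps-15, an early binder of ribosomal RNA in bacteria, had 319.4, 246.7 and 563.6 in the same order (ranks 357, 324 and 345). It lay 16 bp upstream of mrps-15 and is shared with asg-1, which encodes a subunit of ATP synthase. The large subunit gene mrpl-17 had 284.8, 227.4 and 513.6 (ranks 427, 359 and 385), 163 bp upstream, and shares its summit with the RNA helicase gene vbh-1. The summit of mrpl-49, also 163 bp upstream, had 278.5, 250.2 and 509.9 (ranks 440, 320 and 388). It lies between mrpl-49 and rpl-28, so that a mitochondrial and a cytosolic ribosomal protein gene face each other across it. The large subunit gene mrpl-55 had 251.4, 202.3 and 454.8 (ranks 511, 425 and 459), 113 bp upstream, with no other gene in reach. Of these 10 summits, those of mrpl-19, mrpl-17, mrpl-49 and mrpl-55 hold none of the words within 50 bp. Signal was higher in replicate 1 than in replicate 2 at each of the 10 genes.

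**Figure D1:**
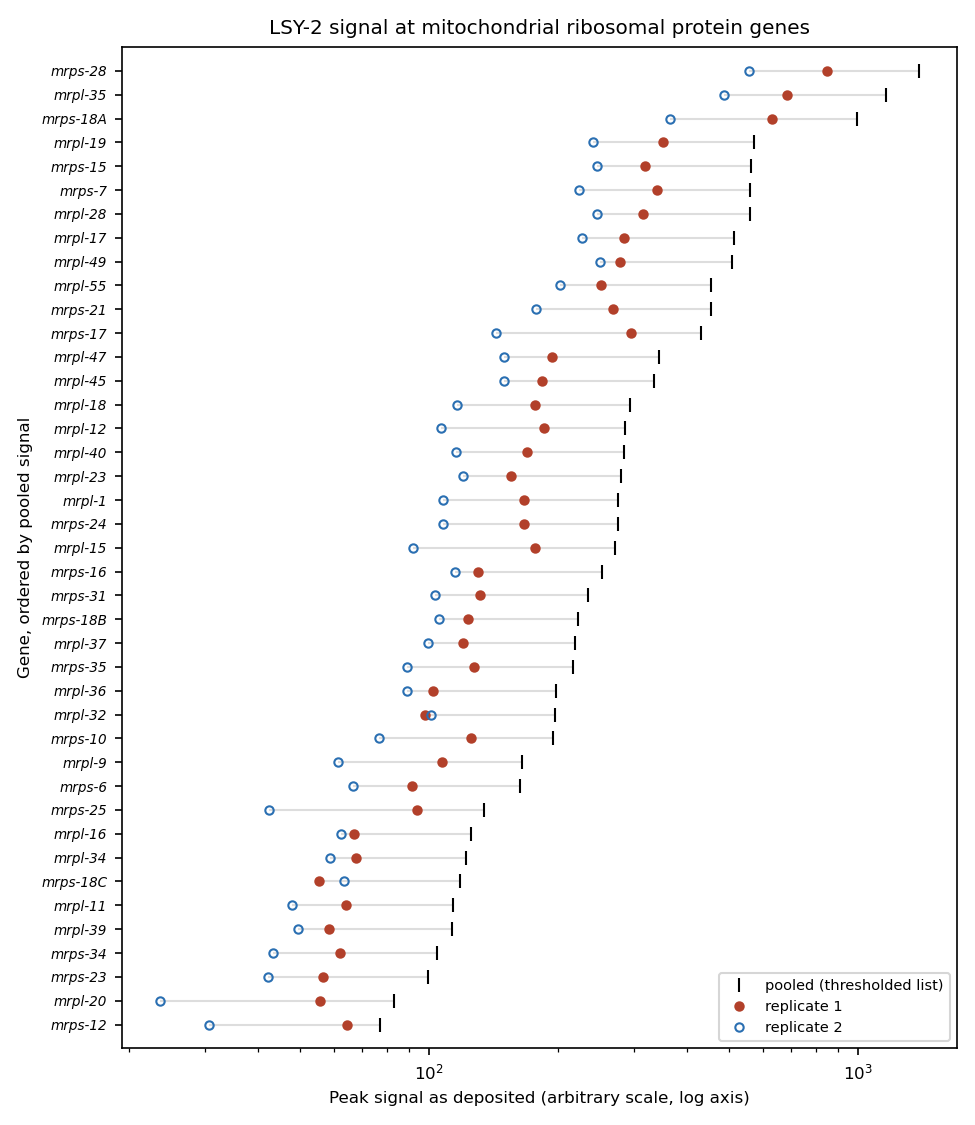
Signal of the strongest thresholded summit at each of the 41 mitochondrial ribosomal protein genes with one, on a log axis: filled points are replicate 1, open points replicate 2 (summit within 200 bp) and bars the thresholded list made from both. The genes run from mrps-28 (1389.0) at the top to mrps-12 (76.8) at the bottom, and mrpl-1 and mrps-24 share a summit.

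Both replicates ranked these summits alike. All 40 distinct summits (mrpl-1 and mrps-24 share 1) had a summit within 200 bp in each replicate. The log2 difference in signal, replicate 1 minus replicate 2, had a median of 0.44 with an SD of 0.32 over the 40 summits, against 0.50 with an SD of 0.57 over the 5823 thresholded peaks matched in both. It was above 0 at 38 of the 40, against 5028 of the 5823. Spearman's rho between the replicates was 0.946 across the 40 summits, against 0.797 across the 5823, as a description of peaks that come from the same 2 libraries. Of the 40 summits, 39 (97.5%) were among the 5944 strongest of both replicates, against 74.6% of all thresholded peaks. In each of these comparisons the thresholded list reaches lower signals, with a median of 114.8 against 271.8 over the 41 genes. Peaks of like signal were not compared, so closer agreement cannot be called particular to the members.

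The replicates differed most in rank at the weak end. The mrpl-20 summit, at a gene whose bacterial counterpart acts early in large subunit assembly, had a signal of 55.6 in replicate 1, 23.6 in replicate 2 and 82.8 in the thresholded list. It ranked 3963 in replicate 1 and 7442 in replicate 2, which places it outside the 5944 strongest peaks of replicate 2. The mrps-12 summit, at the gene for the counterpart of a protein of the bacterial decoding centre, had 64.3 in replicate 1, 30.8 in replicate 2 and 76.8 in the thresholded list, the lowest of the 41 genes. Its ranks were 3335 in replicate 1 and 5422 in replicate 2. The mrps-18C summit went the other way, with 55.4 in replicate 1 and 63.3 in replicate 2 (ranks 3983 and 2272) and 118.5 in the thresholded list. It lay 488 bp upstream and the mrpl-20 summit 144 bp upstream, each in the window of no other gene, whereas exos-7 shares the mrps-12 summit, 116 bp upstream. Also among the 3 weakest was mrps-23, with 56.7 in replicate 1, 42.1 in replicate 2 and 99.4 in the thresholded list (ranks 3886, 3766 and 3470), 108 bp upstream and shared with prp-40.

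Large and small subunit genes had summits at similar shares. A summit lay at 23 of 41 mrpl genes (56.1%) and at 18 of 29 mrps genes (62.1%). The median signal was 280.4 over the 23 mrpl genes and 229.0 over the 18 mrps genes, and the ranges overlapped almost fully, from 82.8 to 1161.8 in mrpl and from 76.8 to 1389.0 in mrps genes. Genes were also divided by the numbers that bacterial ribosomal proteins use, which run to 36 in the large and 21 in the small subunit. Higher numbers mostly name proteins that the mitochondrial ribosome acquired. Of the members within the bacterial numbers, 27 of 41 (65.9%) had a summit, and of those with higher numbers 14 of 29 (48.3%) did. Their median signals were 271.8 and 255.2. This division was made after the values were seen.

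The other mrpl genes with a summit covered several parts of the large subunit. Those of the stalks that handle tRNA and translation factors in bacteria were mrpl-1 (signal 275.5), mrpl-12 (287.0) and mrpl-11 (114.1). The mrpl-1 summit had 166.2 in replicate 1 and 107.7 in replicate 2 (ranks 917 and 1110) and serves as the mrps-24 summit too, 193 bp upstream of mrpl-1 and 151 bp upstream of mrps-24, and emc-6 shares it as well. At the exit of the peptide tunnel lie the counterparts of mrpl-23 (280.4) and, in mammals, mrpl-45 (334.4), which anchors the ribosome to the inner membrane. The mrpl-23 summit lay 968 bp upstream, inside the synthetase gene fars-1, where a non-coding RNA gene and a pseudogene are also annotated. The remaining large subunit genes were mrpl-47 (343.3), mrpl-18 (294.7), mrpl-40 (284.6), mrpl-15 (271.8), mrpl-37 (219.3), mrpl-36 (197.6) and mrpl-32 (197.2). Below these came mrpl-9 (165.2), mrpl-16 (125.3), mrpl-34 (122.2) and mrpl-39 (113.5). The other mrps genes were mrps-21 (454.0), mrps-17 (430.1), mrps-16 (253.5), mrps-31 (235.0), mrps-18B (223.0), mrps-35 (216.6), mrps-10 (194.7), mrps-6 (162.9), mrps-25 (134.5) and mrps-34 (104.5).

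Summits at these genes sat close to the 5′ end. Their median position was 163 bp upstream, against 226 bp upstream over all protein-coding genes with a summit. From 400 bp upstream to the 5′ end lay 34 of 41 (82.9%), against 67.5% of all genes with a summit. By annotation, the summit was intergenic at 36 of the 41 genes, in a 5′ UTR at 3, in an intron of prp-40 at mrps-23 and in a non-coding exon at mrpl-23. These places were not counted for other genes, and the windows lie mostly upstream, so they cannot be called particular to the members. The 5′ UTR was the gene's own at mrpl-47, that of F54C4.4 at mrpl-40 and that of sws-1 at mrps-35.

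**Figure D2:**
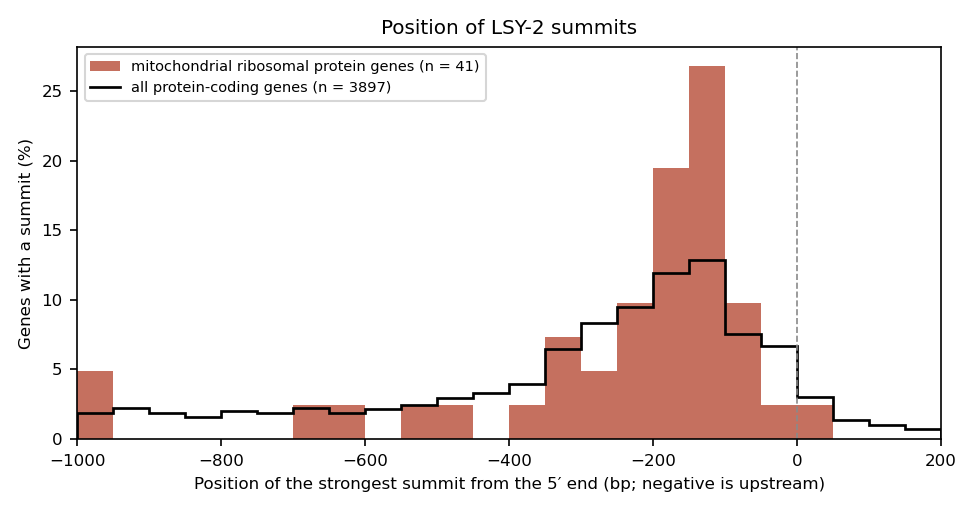
Position of the strongest thresholded summit relative to the annotated 5′ end, in bins of 50 bp, as percent of the 41 mitochondrial ribosomal protein genes with a summit (filled bars) and of the 3897 protein-coding genes with a summit (black line). The bars are tallest from 150 to 100 bp upstream, with 26.8% of these genes against 12.9% of all genes.

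Whether a mitochondrial ribosomal protein gene had its own summit went with what lies upstream of it. Genes were called divergent when the 5′ end of a gene on the opposite strand lay within 1000 bp upstream with no same-strand gene end closer, and close tandem when a same-strand gene ended within 500 bp upstream or overlapped. The members were rich in both arrangements: 27 (38.6%) were divergent, against 17.9% of all protein-coding genes, and 29 (41.4%) close tandem, against 20.8%. Of the divergent members, 25 of 27 (92.6%) had a summit, against 40.7% of all divergent genes. Of the 14 members in neither arrangement, 10 (71.4%) had one, against 14.5%. The summits of all 25 divergent members also lay in the window of another protein-coding gene, against 0 of these 10. The divergent share therefore depends on counting a shared summit for both genes. Of the close tandem members, 6 of 29 (20.7%) had one, against 16.0% of all close tandem genes.

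The close tandem members, however, mostly follow a gene with a summit. Each row of same-strand genes with gaps up to 500 bp was traced to its first gene, and the window of that gene was read. The first gene had a thresholded summit for 24 of the 29 members (82.8%), against 36.4% of all close tandem genes. Among the 23 without a summit of their own, an alternative added after seeing the data, it had a summit for 18 (78.3%), against 31.6% of such genes. The median gap between these 29 genes and the gene before them was 105 bp. Counting a summit at the gene itself or at the first gene of its row, 59 of the 70 members (84.3%) were reached, against 25.0% of all protein-coding genes. In these counts, a summit at a first gene counted even where it also lay in another gene's window. A count with the nearest gene only was not made for first genes. The files do not annotate operons, so these rows are defined by position alone, and whether their genes are transcribed together was not tested.

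**Figure D3:**
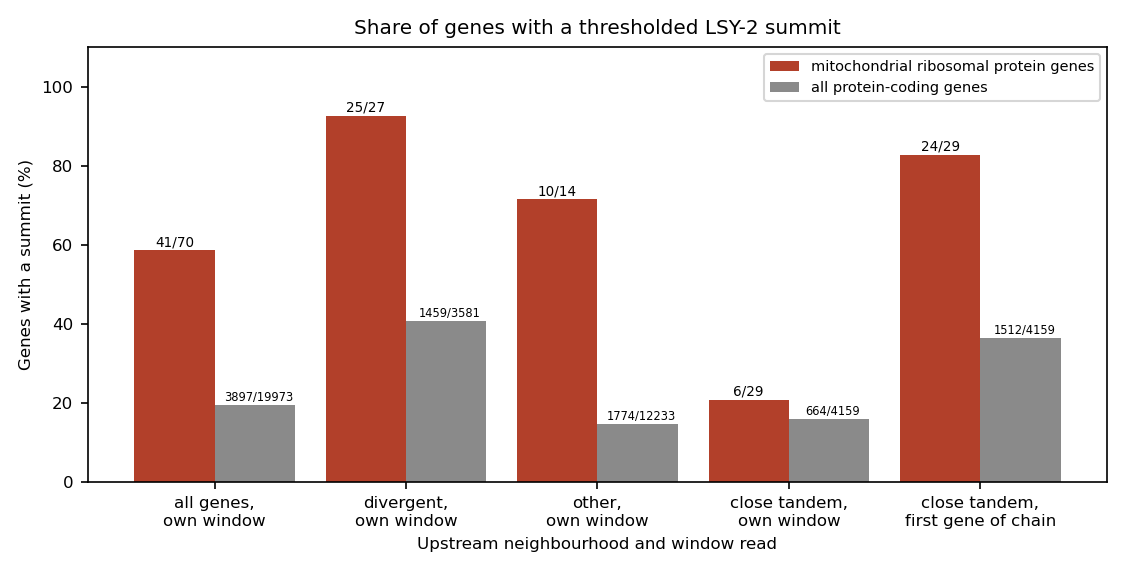
Percent of genes with a thresholded LSY-2 summit, for mitochondrial ribosomal protein genes (left bar of each pair) and all protein-coding genes (right bar), by the arrangement of genes upstream; the last pair reads the window of the first gene of the row instead of the gene's own. Numbers over the bars give genes with a summit over genes in the class. Close tandem members reach 20.7% by their own window and 82.8% by the first gene.

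The first genes of these rows have diverse roles. The strongest summit was that of clsp-1 ahead of mrpl-54, with a signal of 5303.0. On the opposite strand, the 5′ end of eef-2 lies 4009 bp upstream of mrpl-54. Whether eef-2 shares the clsp-1 summit was not read. The initiation factor gene eif-3.E stands first in the row of mrps-30 (578.2), the ATP synthase gene atp-2 in that of mrps-26 (479.4) and the ESCRT gene vps-37 in that of mrpl-48 (422.6). The nuclear RNAi gene nrde-2 precedes mrps-14 (411.4), and natc-1, an N-terminal acetyltransferase gene, precedes mrps-2 and, after it, mrpl-4 (392.4). Ahead of mrpl-41 stands the mitochondrial carrier gene misc-1 (381.2), of mrps-11 W04D2.4 (377.3), of mrps-33 F21D5.7 (359.8) and of mrpl-53 tag-124 (349.3). Weaker were T14B4.3 for mrps-18.C (323.6), uev-1 for mrps-27 (260.0), F13G3.7 for mrpl-13 (224.0) and the RNA polymerase gene rpb-6 for mrps-22 (207.3). Below these came the chaperonin gene cct-2 for mrpl-50 (156.4), W04B5.5 for mrpl-30 (143.4) and sel-1 for mrps-5 (74.6). First genes of close tandem members with a summit of their own are given further below. In the rpb-6 row, mrps-22 directly follows dap-3, which encodes another small subunit protein of the mitochondrial ribosome.

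The gene mrps-5, the member best known from ageing studies, had no thresholded summit of its own. In its window the pooled list held a peak of signal 13.3 at rank 24948 and replicate 2 a peak of 16.6 at rank 11403, and replicate 1 held none. It lies 103 bp downstream of sel-1, a gene of endoplasmic reticulum protein degradation, whose thresholded summit had a signal of 74.6 at rank 4738. The pooled list holds 30000 peaks, so its peak at mrps-5 is among the weakest there.

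The 6 close tandem members with a summit of their own were mrpl-1, mrpl-19, mrpl-23, mrpl-32, mrps-12 and mrps-21. In mrpl-19, the own summit (571.4) was stronger than that of the first gene, rnf-145 (70, rank 5071). In mrpl-32 it was weaker (197.2), since the proteasome gene rpn-3 had 1173.8, and so it was in mrpl-23 against fars-1 (627.7) and in mrps-12 against the Numb gene num-1 (195.8). For mrps-21 and mrpl-1 the summit was the same as that of the first gene, F29B9.11 and emc-6, and emc-6 overlaps mrpl-1. The mrps-21 summit lay 976 bp upstream of mrps-21 and is also that of jmjd-1.2, a histone demethylase gene of the mitochondrial unfolded protein response. It had 268.4 in replicate 1, 177.3 in replicate 2 and 454.0 in the thresholded list. In replicate 2 the matched summit fell outside the mrps-21 window, whose strongest peak there was 25.9 at rank 6657.

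The remaining 11 members were reached neither by an own summit nor through a first gene. These were the divergent genes mrpl-10 and mrpl-51, the genes mrpl-22, mrpl-38, mrpl-44 and mrpl-46 in neither arrangement, and the close tandem genes mrpl-2, mrpl-21, mrpl-24, mrpl-42 and mrps-9. The mrpl-38 window came nearest to the threshold, with a pooled peak of signal 56.4 at rank 6331, 258 bp upstream, found at 38 in replicate 1 (rank 6108) and 25.3 in replicate 2 (rank 6858). On the other side of the threshold, the weakest members were mrps-12 (76.8, rank 4614) and mrpl-20 (82.8, rank 4230). Both lay above the lowest signal of the list (59.9) and below its median (114.8). In mrpl-2, the counterpart of a protein beside the bacterial peptidyl transferase centre, only replicate 2 held a peak (27.1, rank 6324). The windows of mrpl-10, mrpl-44 and mrps-9 held no peak in any of the lists.

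Below the threshold, the peaks at members were weak. Of the 29 members without a thresholded summit, 17 had a peak in the pooled list of 30000, at a median rank of 14062, and 11 had one in both replicates. After mrpl-38, the strongest of these were mrpl-13 (40.3), mrpl-46 and mrpl-48 (35.3 each), mrpl-50 (34.5), mrpl-54 (32.9) and mrpl-22 (32). Over the whole pooled list, 58 of 70 members (82.9%) had a summit in the window, against 35.1% of all protein-coding genes. That share includes the 41 members with a thresholded summit. Over all 19973 protein-coding genes, the count rose from 3897 in the thresholded list to 7011 in the pooled list. In 10 of the 29, no list held a peak in the window, among them mrpl-4, mrpl-30, mrps-2, mrps-18.C, mrps-22, mrps-30 and mrps-33. The counts among the 29 were not made for other genes without a thresholded summit, so they describe these members only.

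The count also depended on how a shared summit was assigned. Of the 41 genes, 28 share the summit with another protein-coding gene, against 1788 of the 3897 protein-coding genes with a summit. When a summit counted for its nearest gene alone, 26 of 70 members (37.1%) had one, against 15.2% of all protein-coding genes. Of the 2972 strongest peaks, a summit lay at 35 members (50%), against 13.4%. With as many of the strongest peaks of a single replicate, 41 members (58.6%) had a summit in replicate 1, against 19.7%, and 39 (55.7%) in replicate 2, also against 19.7%. A window of 500 bp upstream gave 36 members (51.4%), against 16.1%, and a window of 2000 bp gave 44 (62.9%), against 23.9%. Any overlap of the peak with the window gave 41, against 20.3%, and with only genes that have a symbol as background the 41 stood against 24.3%.

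The partners across the shared summits have other roles. At mrps-6 the partner is rpn-8, a proteasome subunit gene, at mrpl-9 the casein kinase gene kin-3, and at mrps-10 the nucleoporin gene npp-25. The splicing factor genes prp-9 and prp-40 face mrps-18B and mrps-23. The partner was nearer to the summit than the mitochondrial ribosomal protein gene at mrpl-35, mrps-28 and mrpl-45, among others, and farther at mrps-7, mrps-15, mrpl-17 and mrpl-49. Which of 2 facing genes a summit acts on cannot be told apart from these lists.

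Of the words sought at the summits, GAGAGA and AGACGCAG came from earlier results of these data. GAGAGA lay within 50 bp of 7 of 40 member summits (17.5%), against 23.1% of the 3361 thresholded summits in promoter windows and 25.9% of all 5944. AGACGCAG lay at 3 of 40 (7.5%), against 9.91% and 9.34%. Both strands were searched, and the end of GAGAGA can overlap the start of AGACGCAG by AGA. The word GCAAACAC, added after the sequences of the strongest summits were seen, lay at 9 of 40 (22.5%), against 6.84% of the promoter summits, 4.93% of all summits and 2 of 66 (3.03%) at cytosolic ribosomal protein genes. It lay at 2 of 12 summits of the mitochondrial import genes and 1 of 10 of the mitochondrial unfolded protein response genes. Among summits of mitochondrial translation and assembly factor genes it lay at 0 of 4. At the first genes of rows whose members lack an own summit, it lay at 1 of 17 (5.88%). The 9 summits were those of mrps-28, mrps-18A, mrps-15, mrpl-28, mrps-17, mrpl-45, mrps-16, mrpl-32 and mrps-10. No test was made, and the word says nothing of which factor binds.

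Besides mrps-7, AGACGCAG occurred at the summits of mrpl-36 and mrpl-20, where GAGAGA lies close to it. These sequences are printed the same way, from chrIII:9848220-9848319 on the minus strand for mrpl-36 and from chrII:13338087-13338186 on the plus strand for mrpl-20. In both, the words stand as their reverse complements.
mrpl-36: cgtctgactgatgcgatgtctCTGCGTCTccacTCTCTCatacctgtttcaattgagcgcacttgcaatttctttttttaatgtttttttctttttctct
mrpl-20: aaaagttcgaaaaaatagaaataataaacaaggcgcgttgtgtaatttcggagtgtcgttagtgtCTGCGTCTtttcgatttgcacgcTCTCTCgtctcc

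In fixed promoters, from 250 bp before to 50 bp after each 5′ end, the words were found more often in genes with a summit than in those without, among the members as among all protein-coding genes. GAGAGA was in the promoter of 13 of the 41 members with a summit (31.7%) and 2 of the 29 without (6.9%), against 34.6% of all protein-coding genes with a summit and 23.3% of those without. AGACGCAG was in 3 of 41 (7.32%) and 0 of 29, against 8.9% of all genes with a summit and 3.29% of those without. GCAAACAC was in 6 of 41 (14.6%) and 0 of 29, against 7.21% and 1.74%. This word was picked from the strongest member summits, so its share at members with a summit is not independent of that choice. Over all promoters the shares were 25.5% for GAGAGA, 4.39% for AGACGCAG and 2.81% for GCAAACAC. Most of the 29 are close tandem genes, whose promoter sequence often reaches into the gene before them.

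Cytosolic ribosomal protein genes carried summits more often and of higher signal. Of 78 genes named rpl- or rps- with a number, 69 (88.5%) had a thresholded summit, with a median signal of 996.9, against 58.6% and 271.8 at the mitochondrial genes. Among those with a summit, 65 of 69 (94.2%) were among the 1000 strongest peaks, against 51.2%. The strongest cytosolic genes were rpl-3 (19064.5), rpl-20 (15869.8) and rpl-15 (11998.1), all of the large subunit. The strongest mitochondrial gene, mrps-28 at 1389.0, lay above the cytosolic median.

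**Figure D4:**
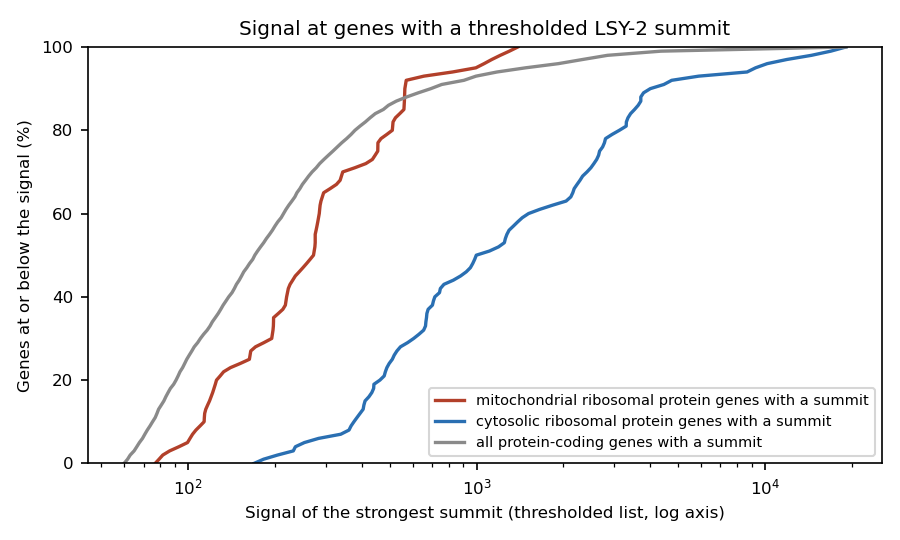
Cumulative percent of genes with a thresholded summit by the signal of their strongest summit (log axis), for mitochondrial ribosomal protein genes (41), cytosolic ribosomal protein genes (69) and all protein-coding genes (3897). The median of the mitochondrial genes (271.8) lies between that of all genes (170.1) and that of the cytosolic genes (996.9).

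Other genes of mitochondrial gene expression and upkeep were read from lists chosen by role. Of 15 protein import genes, 12 (80%) had a thresholded summit, with a median signal of 302.1, led by the carrier chaperone gene ddp-1 (837.1), the receptor gene tomm-20 (746.0) and the channel gene timm-17B.1 (741.3). Of 15 genes of the mitochondrial unfolded protein response, 10 (66.7%) had one (median 265.6), led by the chaperonin gene hsp-60 (1095.2), the chaperone gene hsp-6 (483.5) and jmjd-1.2 (454.0), whose summit is that of mrps-21. The response's central regulator, atfs-1, had 179.5. Of 9 mitochondrial translation and ribosome assembly factors found in the annotation, 4 (44.4%) had one, namely the elongation factor genes tufm-1 (1076.4), tufm-2 (299.3) and gfm-1 (218.3) and the GTPase gene mtg-1 (155.5). The 9 include dap-3, which encodes a ribosomal protein rather than a factor and had no summit. Of 5 genes that maintain or transcribe mitochondrial DNA, only mtss-1 (131.8), for a single-stranded DNA-binding protein, had one. The 19.5% of all protein-coding genes is the common measure for these counts, and the smaller lists hold few genes.

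Members lay on every autosome and none on X. Chromosome III held 22 of the 70, and 16 of them (72.7%) had a summit, against 31.7% of all its protein-coding genes. On chromosome I, 9 of 15 (60%) had one, against 28.6%. On chromosome II, 5 of 12 (41.7%) had one, against 19.7%. On IV the count was 6 of 11 (54.5%), against 18.5%, and on V 5 of 10 (50%), against 11.3%.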

How the data were processed

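ChIP-seq peak lists of 2 biological replicates were used. Per the labels and the deposited notes, the authors called peaks for each replicate and for both pooled, and kept a list by IDR. Not given in the sources used here are the aligner, the caller and the cutoff for IDR. The deposited signal of each peak and the position of its summit were read as they stand. The authors' −log10 q-value was at most 4.2 in the thresholded list and was not used further. The ce11 lists were used with the Ensembl release 115 annotation of WBcel235 and the RefSeq sequence of the same assembly, and no peak ended beyond a chromosome; the ce10 lists were not used.

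Every 5′ end of a protein-coding transcript had a window from 1000 bp upstream to 200 bp downstream. A gene with several summits was given its strongest. Replicate signals at a thresholded summit are those of the strongest summit within 200 bp. Words were sought on both strands in 101 bp at each summit. The window assignment was tested on simulated data.

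The genes, lists and words were chosen with earlier results of these data known. The rule for full values took the 10 strongest summits, the 3 weakest, the 3 with the largest difference in rank between replicates, mrps-5 and mrpl-1. Names in the lists that matched no gene were mtfb-1, gfm-2, guf-1, mtfmt-1, mtg-2, mtif-2, mtif-3 and mtrf-1. Depth is unknown from peak lists. Alternatives were other peak lists, each replicate alone, windows of 500 and 2000 bp, whole intervals, the nearest gene only, other gaps and longer word flanks. Tables were made with pandas 2.3.3 and numpy 2.4.6 in Python 3.11.15, and figures with matplotlib 3.10.9.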

Additional observations from a re-analysis of the deposited data

How the results depend on the processing

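Giving each summit to the nearest gene only lowered the number of members with a summit to 26 and that of mrpl genes to 14, since facing genes then compete for a summit. The whole pooled list raised the count of mrpl genes to 35 and that of all protein-coding genes to 7011, because it holds more peaks. Other peak lists, windows and the use of whole intervals kept the counts of members within 1.5 times the count reported. Leaving out a replicate gave 39 to 41 members. Median signals moved with the scale of each list: over members the median was 180.0 in the pooled list and 106.8 to 155.4 with a replicate left out, and over all protein-coding genes with a summit it was 75.2 in the pooled list, 242.4 among the 2972 strongest peaks and 72.6 to 102.5 with a replicate left out. With a gap of 200 bp, 3 of 22 close tandem members (13.6%) had a summit, against 14.1% of all close tandem genes. The members were thus not above all genes of that class at this setting. With 500 bp between facing 5′ ends, 17 of 21 members in neither arrangement (81%) had one, against 17% of all such genes. No paired analysis was possible because the series holds 1 group. Peak lists carry no depth, so a gene without a summit is below detection in these lists and is not shown to lack LSY-2.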
